A study of Mus musculus with 4 samples.

Results

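The 10 shelterin and telomere maintenance genes Terf1, Terf2, Terf2ip, Tinf2, Acd, Pot1a, Pot1b, Rtel1, Dkc1 and Tep1 were followed in single cells of mouse adipose tissue. They were chosen by gene symbol, as 10 of the 32285 mouse genes in the count tables, and all 10 had a row. Mice whose endothelial cells (EC) lack Tert, the catalytic subunit of telomerase, were compared with controls. The WT libraries came from Tie2e-cre; TERT+/+; mTmG mice and the KO libraries from Tie2e-cre; TERTfl/fl; mTmG mice. All groups therefore carried the same recombinase and the same reporter, which turns from membrane Tomato to membrane GFP where the recombinase has acted. The recombinase is driven by a Tie2 promoter, so that deletion of Tert was aimed at EC. The mice were male, 7 months old and had received a high-fat diet for 5 months. For each genotype there was 1 library of subcutaneous (SC) and 1 of visceral intraperitoneal (IP) adipose tissue, 4 libraries in all. How many mice went into each library is not given, and the protocol speaks of dissociated cells in one place and of nuclei in another.

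Telomeres are the repeat ends of chromosomes, and shelterin is the protein complex that covers them and keeps them from being read as broken DNA. Terf1 and Terf2 encode its duplex-binding proteins TRF1 and TRF2, Terf2ip encodes the TRF2 partner RAP1, and Tinf2 encodes TIN2, which bridges the complex. Acd encodes TPP1, which holds the single-strand binding protein POT1 and recruits telomerase. Mice have a pair of POT1 genes, Pot1a and Pot1b. Rtel1 encodes a helicase that opens telomeric loops, Dkc1 encodes dyskerin, a core protein of telomerase and of other small nucleolar ribonucleoproteins, and Tep1 encodes a telomerase-associated protein that is also part of vault particles.

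The members lay on 7 chromosomes and were all protein coding in the GENCODE annotation of GRCm38. Terf1 (ENSMUSG00000025925) was at chr1:15805646-15844052, Terf2 (ENSMUSG00000031921) at chr8:107069400-107096547, Terf2ip (ENSMUSG00000033430) at chr8:112011398-112020528 and Acd (ENSMUSG00000038000) at chr8:105695860-105701102. Tinf2 (ENSMUSG00000007589) was at chr14:55674689-55681820, Tep1 (ENSMUSG00000006281) at chr14:50824059-50870560, Pot1a (ENSMUSG00000029676) at chr6:25743737-25809246 and Pot1b (ENSMUSG00000024174) at chr17:55651951-55712628. Rtel1 (ENSMUSG00000038685) was at chr2:181319739-181356616 and Dkc1 (ENSMUSG00000031403) at chrX:75095854-75109777. No member overlapped another gene on its own strand, while Acd, Tep1, Tinf2 and Dkc1 overlapped Carmil2, Gm26782, Gmpr2 and Mpp1 on the other strand. The paralogues Pot1a and Pot1b could be told apart, since 0.37% of the 25-base words of Pot1a transcripts and 0.53% of those of Pot1b occurred in another member. The largest share of a member's words found in any other gene was 2.40%, for Dkc1 and Gm13776.

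Promoters of Tinf2, Pot1a and Pot1b are shown, as the bridge and the POT1 pair of shelterin, because they held CRE or ETS letters. These 3 were chosen after values and sequences were seen. Each runs 5′ to 3′ on the minus strand of GRCm38.p6, from 250 bases before to 50 bases after the gene's start. The table matched 8 of the 10 members, and Terf1 and Tep1 were not matched. Capitals mark a CRE letter match (TGACGTCA) in Tinf2 and Pot1a, an ETS letter match (CCGGAAGT) in Pot1b, and GC box letter matches (GGGCGG) in Pot1a and Pot1b. They cover chr14:55681768-55682067 for Tinf2, chr6:25809169-25809468 for Pot1a and chr17:55712587-55712886 for Pot1b.
Tinf2 promoter: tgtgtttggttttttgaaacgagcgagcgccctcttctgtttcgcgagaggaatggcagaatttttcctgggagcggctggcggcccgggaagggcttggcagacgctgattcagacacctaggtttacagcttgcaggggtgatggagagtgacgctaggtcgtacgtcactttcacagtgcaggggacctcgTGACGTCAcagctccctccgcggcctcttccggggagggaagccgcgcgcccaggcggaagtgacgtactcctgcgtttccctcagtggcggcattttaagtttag
Pot1a promoter: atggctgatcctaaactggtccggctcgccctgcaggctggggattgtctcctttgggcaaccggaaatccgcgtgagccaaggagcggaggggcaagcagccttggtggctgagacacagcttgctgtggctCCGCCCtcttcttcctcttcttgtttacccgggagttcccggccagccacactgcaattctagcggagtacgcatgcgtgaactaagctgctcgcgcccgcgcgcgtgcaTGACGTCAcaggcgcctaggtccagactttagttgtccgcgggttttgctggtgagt
Pot1b promoter: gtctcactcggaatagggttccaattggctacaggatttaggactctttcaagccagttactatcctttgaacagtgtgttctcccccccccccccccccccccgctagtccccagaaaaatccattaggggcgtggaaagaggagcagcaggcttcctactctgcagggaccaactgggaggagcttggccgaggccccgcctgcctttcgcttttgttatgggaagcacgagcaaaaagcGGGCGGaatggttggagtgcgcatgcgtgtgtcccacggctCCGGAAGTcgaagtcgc

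These motifs were searched on both strands. The CRE letters were in 507 of 27025 promoters of this length, 1.88%, and in 2 of the 8 members matched. The ETS letters were in 4% of all promoters and in 1 member, and the GC box letters were in 35.9% of all promoters and in 5 members (Terf2, Terf2ip, Pot1a, Pot1b and Rtel1). The E-box letters CACGTG were in 7.24% of all promoters and in none of the 8. A letter match describes the sequence only, and no binding was measured.

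The tables held 700 to 2115 barcodes per library, with 10015201 to 15533961 UMIs (unique molecular identifiers, counts of captured transcripts). After filtering, 4113 of 4927 barcodes remained. Values for the 4 libraries are given below in the order WT SC, KO SC, WT IP, KO IP unless named. Cells were placed in a class by the UMIs of 6 marker genes per cell type. This gave 1782 T cell-like, 779 B cell-like and 807 adipose stromal cell (ASC)-like cells, each in all 4 libraries, and 85 macrophage-like cells in the IP libraries. T cell markers summed to 3254 to 3906 CPM (UMIs of a gene per 1000000 UMIs of the class) in T cell-like cells and at most 38.8 CPM in ASC-like cells, while ASC markers were at 25775 to 33441 CPM in ASC-like cells and at most 42.9 CPM in T cell-like cells. In KO IP, ASC-like cells also held 505 CPM of 6 mesothelial markers, against 8.59 to 20.02 CPM in the other 3 libraries. The part of these markers in the results was not tested. Only 21 cells were endothelial-like, 4 of them from KO IP and none from KO SC, so EC were not compared.

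A set of 93 barcodes occurred in both KO SC and WT IP, while other pairs of libraries shared 0 or 1. Their KO SC copies had a median of 601 UMIs against 35392 in WT IP, and 92 of the 93 KO SC profiles correlated best with the same barcode in WT IP. They made up 75 of the 204 ASC-like cells of KO SC, but 2.596% of the UMIs of that class. The 10 members together were at 117 CPM in KO SC ASC-like cells with these barcodes and at 118 CPM without them. Counts per cell were touched more, with 1.04 member UMIs per cell with them and 1.64 without, and they were left out wherever counts per cell were tested.

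Tert itself was near the detection limit. ASC-like cells had 0 Tert UMIs in both SC libraries, 8 in WT IP and 9 in KO IP. The T cell-like cells of WT SC had 2 and those of the remaining libraries 0, and B cell-like cells had 1, 2, 0 and 0. A count of 0 in ASC-like cells allows up to 1.62 CPM in WT SC and 1.64 CPM in KO SC beside 1.30 and 1.69 CPM in WT IP and KO IP. These limits take each SC library alone, and a difference in Tert between depots was not tested. The labels do not say which exons were floxed, so these 3′ counts do not check the deletion.

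The 10 members were all detected, with 8199 UMIs of 43194596 in kept cells, or 190 CPM (95% counting interval 186 to 194). In T cell-like cells they summed to 233, 207, 223 and 266 CPM, a mean of 232 ± 24.97 (SD, n = 4 libraries). In B cell-like cells the sums were 257, 254, 223 and 248 CPM (245 ± 15.3, n = 4). In ASC-like cells they were 133, 117, 124.7 and 136 CPM (128 ± 8.80, n = 4). Every T cell-like and B cell-like value lay above every ASC-like value. The 66 member UMIs of the endothelial-like cells came to 166 CPM (128 to 211), with none from Pot1b. Barcodes under 200 genes, whose UMIs were almost all haemoglobin, held 2 member UMIs among 6262288.

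**Figure D1:**
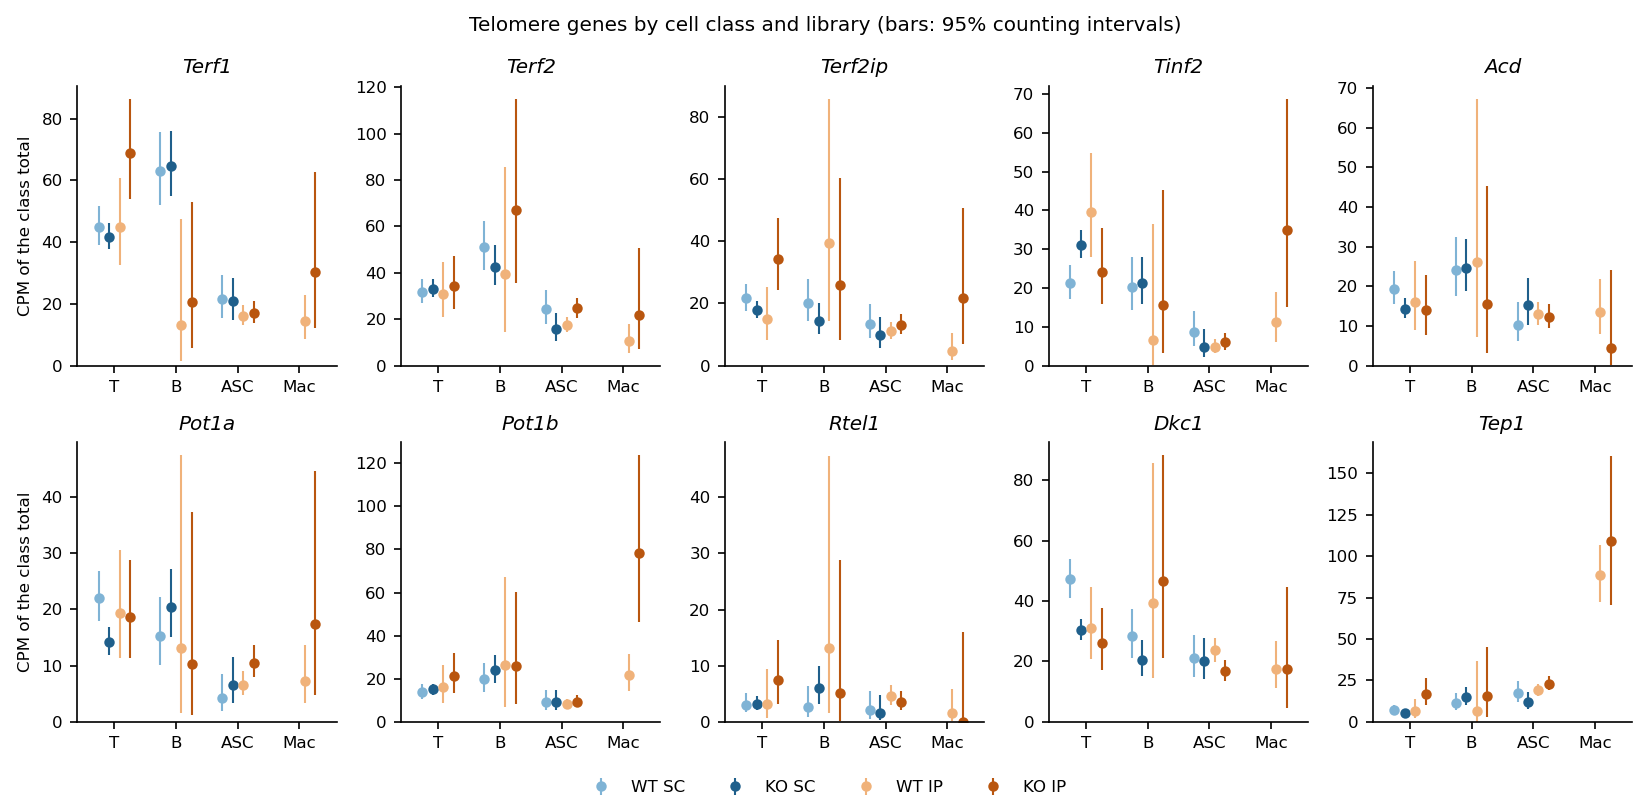
Each panel shows 1 member's level in CPM (vertical axis) by cell class and library, with the exact 95% counting interval as the bar. Macrophage-like cells are shown for the IP libraries only. Tinf2 and Terf1 are lower in ASC-like than in T cell-like cells in each library, while Tep1 is highest in macrophage-like cells, at 88.3 and 109 CPM.

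Which members differ between cell types was tested with edgeR's quasi-likelihood test on counts summed per class and library, with the library as a block and Benjamini-Hochberg adjustment over 11049 genes. Rtel1 was too low to pass the filter, so 9 members were tested. In ASC-like cells 7 of them were lower than in T cell-like cells and 1 was higher, with Acd (log2 difference -0.28) not passing. Among all genes 30.7% were lower and 35.8% higher. The median member difference was -0.83, against 0.09 over all genes. Compared with B cell-like cells, 7 were lower in ASC-like cells and none higher, beside 28% and 36% of all genes, with a median of -1.20 against 0.13. Because libraries need not be separate mice, these p-values measure the spread between these libraries only.

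Tinf2, the bridge of shelterin, had the largest difference of the members between ASC-like and T cell-like cells. In T cell-like cells it was at 21.2, 31.2, 39.7 and 24.2 CPM. In ASC-like cells it was at 8.66, 4.92, 4.86 and 6.02 CPM. The groups did not overlap, and the ASC-like level was lower in all 4 libraries. Here, above and for the members below, how many of all genes separate in this way was not counted. The log2 difference was -2.18 (SE 0.30, adjusted p = 3.28e-05) against T cell-like cells. Against B cell-like cells, which were at 20.3, 21.3, 6.56 and 15.5 CPM on 37, 50, 1 and 3 UMIs, it was -1.58 (SE 0.36, adjusted p = 0.00213).

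Terf1, the duplex-binding TRF1 gene, was at 45.02, 41.8, 45.02 and 68.8 CPM in T cell-like cells. In ASC-like cells it was at 21.6, 20.8, 16.2 and 17.1 CPM. Again every ASC-like value was below every T cell-like value, with a log2 difference of -1.32 (SE 0.27, adjusted p = 0.000855). B cell-like cells were at 63.1 and 64.8 CPM in WT SC and KO SC but at 13.1 and 20.7 CPM in WT IP and KO IP, the latter on 2 and 4 UMIs. The difference of ASC-like from B cell-like cells was -1.34 (SE 0.31, adjusted p = 0.00207), and in the IP libraries the B cell-like and ASC-like values were side by side.

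Terf2, the TRF2 gene, was at 31.1 to 34.4 CPM in T cell-like and 39.4 to 67.3 CPM in B cell-like cells. It was at 24.3, 15.9, 17.5 and 24.6 CPM in ASC-like cells. All ASC-like values were below all T cell-like and B cell-like values, and the log2 difference was -0.65 (SE 0.19, adjusted p = 0.0088) against T cell-like and -1.20 (SE 0.21, adjusted p = 0.00032) against B cell-like cells. Its partner Terf2ip was at 15.01 to 34.4 CPM in T cell-like, 14.5 to 39.4 in B cell-like and 9.85 to 13.5 in ASC-like cells. The Terf2ip differences of ASC-like cells were -0.86 (adjusted p = 0.00763) and -0.78 (adjusted p = 0.0344).

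The POT1 genes were lower in ASC-like cells too. Pot1a was at 22.1, 14.3, 19.3 and 18.6 CPM in T cell-like cells and at 4.33, 6.56, 6.65 and 10.5 CPM in ASC-like cells, without overlap. B cell-like cells were at 15.4, 20.5, 13.1 and 10.3 CPM, on 2 UMIs in each IP library, and overlapped the ASC-like range. The Pot1a difference was -1.32 (SE 0.30, adjusted p = 0.00172) against T cell-like and -1.22 (SE 0.36, adjusted p = 0.00956) against B cell-like cells. Pot1b was at 13.9 to 21.4 CPM in T cell-like, 19.7 to 26.2 CPM in B cell-like and 8.11 to 9.40 CPM in ASC-like cells. The Pot1b difference was -0.83 (SE 0.21, adjusted p = 0.00398) and -1.34 (SE 0.24, adjusted p = 0.000386). Acd, the POT1 partner, was at 13.9 to 19.4 CPM in T cell-like, 15.5 to 26.2 in B cell-like and 10.3 to 15.3 in ASC-like cells. Acd passed the test only against B cell-like cells, at -0.79 (SE 0.26, adjusted p = 0.016).

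Dkc1, the dyskerin gene, was at 47.2, 30.4, 31.1 and 26.0 CPM in T cell-like cells and at 21.1, 20.2, 23.7 and 16.7 CPM in ASC-like cells. It was lower in ASC-like than in T cell-like cells (log2 difference -0.71, SE 0.23, adjusted p = 0.0166). Against B cell-like cells, at 20.5 to 46.6 CPM, the difference of -0.39 (SE 0.28, adjusted p = 0.245) did not pass. Tep1 went the other way. It was at 7.28, 5.20, 6.43 and 16.7 CPM in T cell-like cells and at 17.3, 12.03, 19.1 and 22.9 CPM in ASC-like cells. ASC-like cells were higher in all 4 libraries, and the log2 difference was 1.16 (SE 0.28, adjusted p = 0.00245). The helicase gene Rtel1 had 55 UMIs in T cell-like and 54 in ASC-like cells, at 3.09 to 7.43 and 1.64 to 4.54 CPM, and those ranges overlapped.

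Between B cell-like and T cell-like cells the same edgeR test called 0 of 9 members, while 10.8% of all genes were higher and 15.4% lower in B cell-like cells. DESeq2 also called 0. At an unadjusted p under 0.05, 3 members were higher in B cell-like cells and none lower. These were Terf2 (log2 difference 0.55, adjusted p = 0.0698), Tep1 (0.85, adjusted p = 0.0741) and Pot1b (0.51, adjusted p = 0.128).

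**Figure D2:**
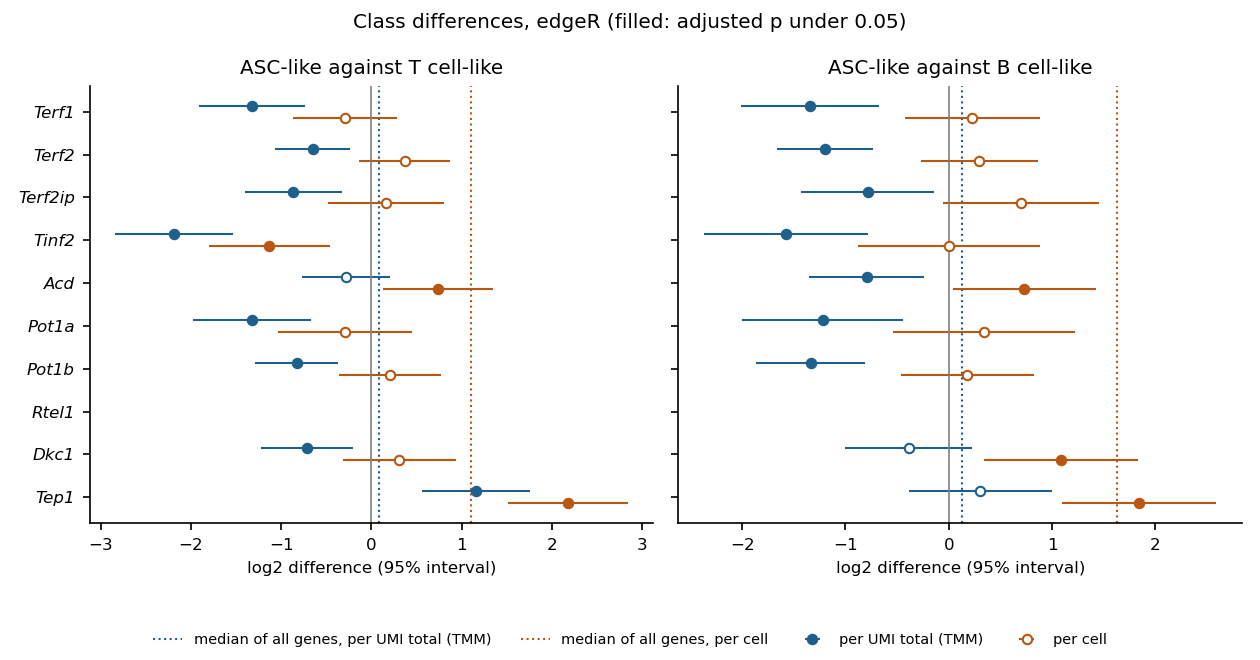
Log2 differences of ASC-like cells from T cell-like and B cell-like cells are shown for each member tested, with 95% intervals, scaled per UMI total (blue) and per cell (orange). Filled points have an adjusted p under 0.05 and dotted lines mark the median of all genes. Tinf2 at -2.18 and Tep1 at 1.16 in the comparison with T cell-like cells are called on both scales.

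These differences are shares of a class's UMIs. With shared barcodes left out, ASC-like cells had a higher median of UMIs per cell than lymphoid cells in each library. With them kept, the KO SC median was 5724.5 in ASC-like and 7879 in T cell-like cells, and without them 14663 and 7874. The members were therefore also compared per cell, where the median of all genes shifted to 1.10 (log2) for ASC-like against T cell-like cells and to 1.63 against B cell-like cells. Per cell, Tinf2 was still lower in ASC-like than in T cell-like cells (log2 difference -1.13, adjusted p = 0.00437), and 1 member was lower beside 11.5% of all genes. Tep1 (2.18, adjusted p = 1.44e-05) and Acd (0.74, adjusted p = 0.0283) were higher, beside 64.4% of all genes. Terf1 and Pot1a were at -0.29 each, and Terf2 (0.37), Dkc1 (0.31), Pot1b (0.20) and Terf2ip (0.17) had a positive sign, none of them passing. Compared with B cell-like cells, no member was lower per cell, at an unadjusted p under 0.05 either. Tep1 (1.84, adjusted p = 0.000204), Dkc1 (1.08, adjusted p = 0.0102) and Acd (0.73, adjusted p = 0.0484) were higher, beside 74% higher and 7.55% lower of all genes. In B cell-like against T cell-like cells 1 member, Tinf2, was lower per cell (-1.13, adjusted p = 0.0172) and none higher, beside 31.4% and 5.72% of all genes. Of the members lower in ASC-like cells as a share of UMIs, Tinf2 against T cell-like cells was thus the one also called lower per cell.

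The calls also depended on libraries. Leaving out WT SC or KO SC lowered the count of members lower in ASC-like than in T cell-like cells from 7 to 3 in each case, and the count against B cell-like cells to 3 and 2. Without WT IP the count against B cell-like cells was 4. Over 16 settings other than the scaling per cell, Tinf2, Terf1 and Tep1 against T cell-like cells and Terf2 and Pot1b against B cell-like cells passed in each. Dkc1 against T cell-like cells passed in 10 and Terf2ip against B cell-like cells in 9.

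Macrophage-like cells were numerous enough in the IP libraries only, with 69 cells from WT and 16 from KO, and their test was added after the data were seen. Their leading genes C1qa, C1qb and C1qc were among the markers that set the class, and Pf4, Fcrls, Folr2 and Ms4a7, which were not, came next. The macrophage markers summed to 4309 and 6054 CPM. Tep1 was called in each of the 3 comparisons with the other classes. It was at 88.3 CPM on 110 UMIs in the WT library and at 109 CPM on 25 UMIs in the KO library, or 1.59 and 1.56 UMIs per cell, above every value of the other 3 classes. The log2 difference was 3.37 (SE 0.35, adjusted p = 2.90e-06) against T cell-like and 2.57 (SE 0.39, adjusted p = 0.000146) against B cell-like cells. For ASC-like against macrophage-like cells it was -2.27 (SE 0.32, adjusted p = 3.61e-05). Each of the 3 passed in all 14 settings tried and per cell.

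Pot1b was at 21.7 CPM in macrophage-like cells of WT IP (27 UMIs) and at 78.3 CPM in those of KO IP (18 UMIs). It was higher than in T cell-like cells (log2 difference 1.27, SE 0.38, adjusted p = 0.019) and than in ASC-like cells (ASC-like against macrophage-like -2.12, SE 0.37, adjusted p = 0.000299), and both calls held per cell. Without KO IP the Pot1b difference from T cell-like cells was 0.59 and was no longer called. The paralogue Pot1a was at 7.23 and 17.4 CPM on 9 and 4 UMIs and was called against no class. Terf2 was at 10.4 and 21.8 CPM and was lower than in T cell-like cells (-1.21, SE 0.38, adjusted p = 0.0243) and in B cell-like cells (-1.69, SE 0.40, adjusted p = 0.00489), neither of which passed per cell. Per cell, 2 members (Tep1 and Pot1b) were higher and 0 lower than in T cell-like cells, beside 27% and 6.02% of all genes, and the same 2 were higher and 0 lower than in B cell-like cells, beside 40.1% and 2.94%. Tinf2, at 11.2 and 34.8 CPM, was lower in ASC-like than in macrophage-like cells (-1.62, SE 0.55, adjusted p = 0.0298), with an adjusted p of 0.0538 per cell. In ASC-like against macrophage-like cells per cell, 0 members were higher and 2 lower, beside 28.5% and 11.3% of all genes.

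Over all genes in this fit of 12704 genes, 16.3% were higher and 13.5% lower in macrophage-like than in T cell-like cells, beside 2 and 1 of the 10 members. Relative to B cell-like cells, 1 member was higher and 1 lower, beside 16.6% and 9.53%. In ASC-like against macrophage-like cells no member was higher and 3 were lower, beside 21.7% and 16.8%. Without WT IP no member was lower than in T cell-like or in B cell-like cells and 2 were higher than in B cell-like cells. Without KO IP, 1 was higher and 2 were lower than in T cell-like cells, and 2 were lower than in B cell-like cells. Without KO SC none was lower than in T cell-like cells.

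**Figure D3:**
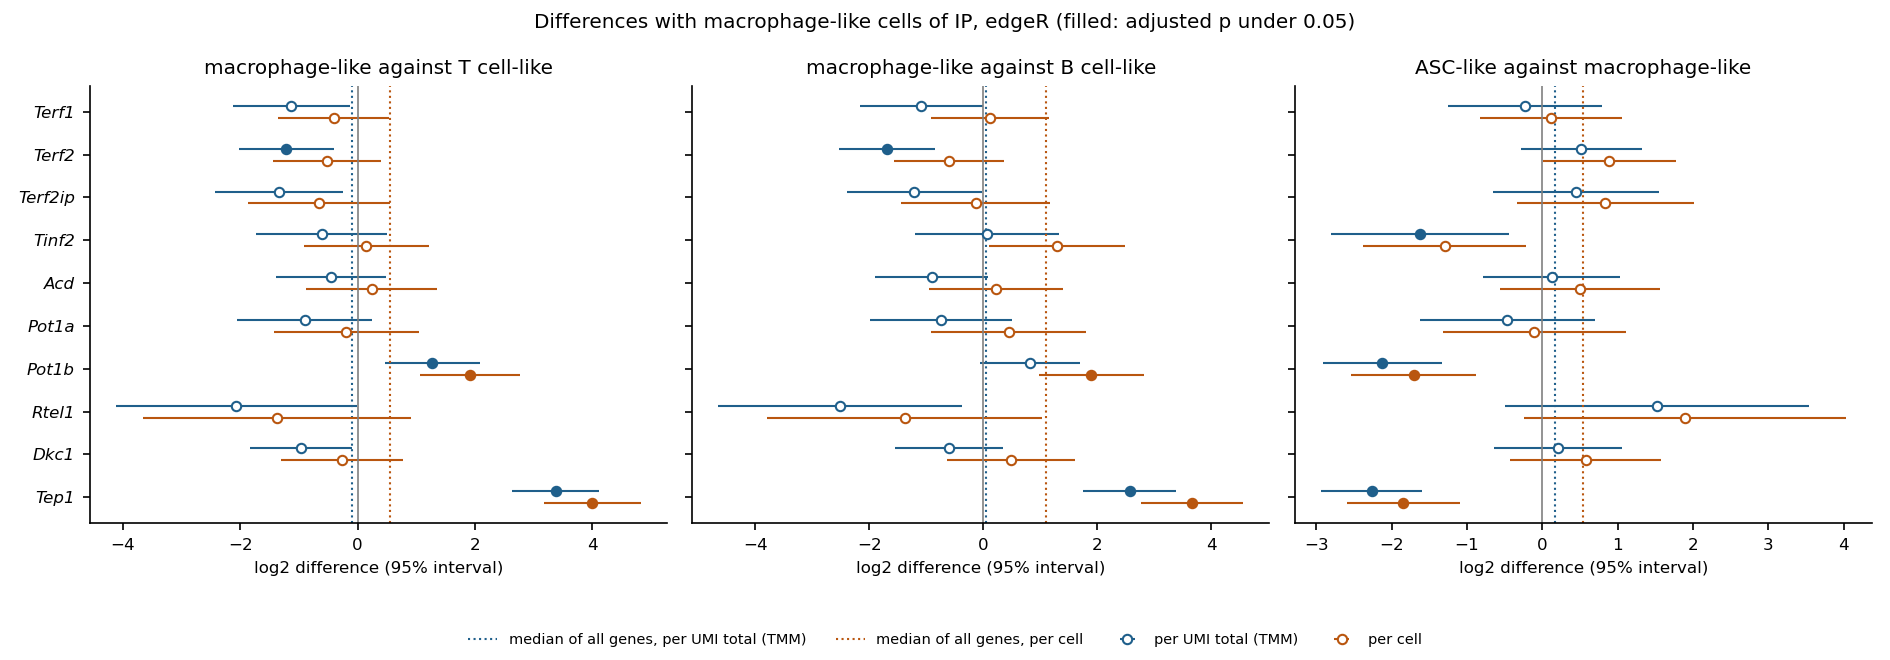
The plot shows log2 differences between macrophage-like cells of the IP libraries and the other classes for each member, with 95% intervals, per UMI total (blue) and per cell (orange). Filled points have an adjusted p under 0.05, and dotted lines mark the median of all genes. Tep1 lies farthest from 0 in each panel, at 3.37, 2.57 and -2.27 per UMI total.

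The study asked whether loss of Tert in EC reaches other cells, and the members were compared between KO and WT within a depot. Each side was 1 library, no test was run, and the intervals given cover counting error only. Of 47 member values in 5 comparisons, 9 had an interval that left out 0, beside 26.5% of all gene values with the same minimum of UMIs. The share of cells with a UMI of GFP, the reporter, differed between the libraries compared. It was 68.2, 40.0, 70.5 and 37.4% in T cell-like and 41.7, 53.5, 33.0 and 18.6% in ASC-like cells, and 42.7 and 24.4% in B cell-like cells of WT SC and KO SC, with shared barcodes left out. Its part in the ratios was not tested. Whether the compared cells had lost Tert themselves is not known, so such loss and an effect from EC cannot be told apart here. The members together were at a log2 ratio of -0.17 (-0.28 to -0.06) in T cell-like cells of SC, where the median of all genes was -0.14. They were at -0.02 (-0.19 to 0.16) in B cell-like and -0.19 (-0.46 to 0.08) in ASC-like cells of SC, and at 0.25 (-0.01 to 0.52) in T cell-like and 0.13 (-0.02 to 0.28) in ASC-like cells of IP. With median-of-ratios scaling the first of these values was -0.03.

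For T cell-like cells of SC, Tinf2 was at 31.2 CPM in KO against 21.2 in WT (log2 ratio 0.55, 0.22 to 0.91). Dkc1 was at 30.4 CPM in KO and 47.2 in WT (-0.64, -0.90 to -0.37). Pot1a was at 14.3 and 22.1 CPM (-0.63, -1.01 to -0.24) and Acd at 14.3 and 19.4 CPM (-0.45, -0.84 to -0.04). These were the 4 of 10 members whose interval left out 0, beside 33% of all genes. With median-of-ratios scaling the interval of Acd (-0.70 to 0.10) included 0. At least 1.5-fold apart were 0 members in the higher and 2 of 10 in the lower direction, beside 4.55% and 14.5% of all genes.

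For T cell-like cells of IP, Terf2ip was at 34.4 CPM in KO against 15.01 in WT (1.16, 0.27 to 2.20), on 37 and 14 UMIs. Terf1 was at 68.8 CPM in KO and 45.02 in WT (0.60, 0.05 to 1.19). The intervals of these 2 of 9 members left out 0, beside 22.8% of all genes, and with median-of-ratios scaling that of Terf1 (-0.09 to 1.05) included 0. The median of all genes in this comparison was 0.13. Of the 9 members, 3 were at least 1.5-fold higher and 1 lower, beside 19.2% and 7% of all genes. Tinf2, at 24.2 CPM in KO and 39.7 in WT, had the opposite sign to the SC comparison, but its IP interval included 0. Per UMI total, no member had intervals leaving out 0 on opposite sides in the 2 depots of a class. With median-of-ratios scaling Tinf2 did in T cell-like cells. It was then at 0.69 (0.36 to 1.04) in SC and at -0.85 (-1.64 to -0.09) in IP.

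In ASC-like cells of IP, Terf2 was at 24.6 CPM in KO and 17.5 in WT (0.49, 0.11 to 0.87) and Pot1a at 10.5 and 6.65 CPM (0.66, 0.06 to 1.28). Dkc1 was at 16.7 CPM in KO and 23.7 in WT (-0.50, -0.90 to -0.11). These 3 of 10 stood beside 33.3% of all genes. At least 1.5-fold higher was 1 of 10 members and lower were 0, beside 12.3% and 6.69% of all genes. The mesothelial markers of 505 CPM stood in the KO side of this comparison. In ASC-like and B cell-like cells of SC no member's interval left out 0, beside 20.9% and 18.2% of all genes. There 0 members were higher and 2 of 9 lower in ASC-like cells, beside 9.48% and 8.8%, and 0 of 9 either way in B cell-like cells, beside 5.5% and 10.9%. The 9 ratios kept their sign in all 11 settings tried, while with median-of-ratios scaling 8 of the 47 intervals left out 0.

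**Figure D4:**
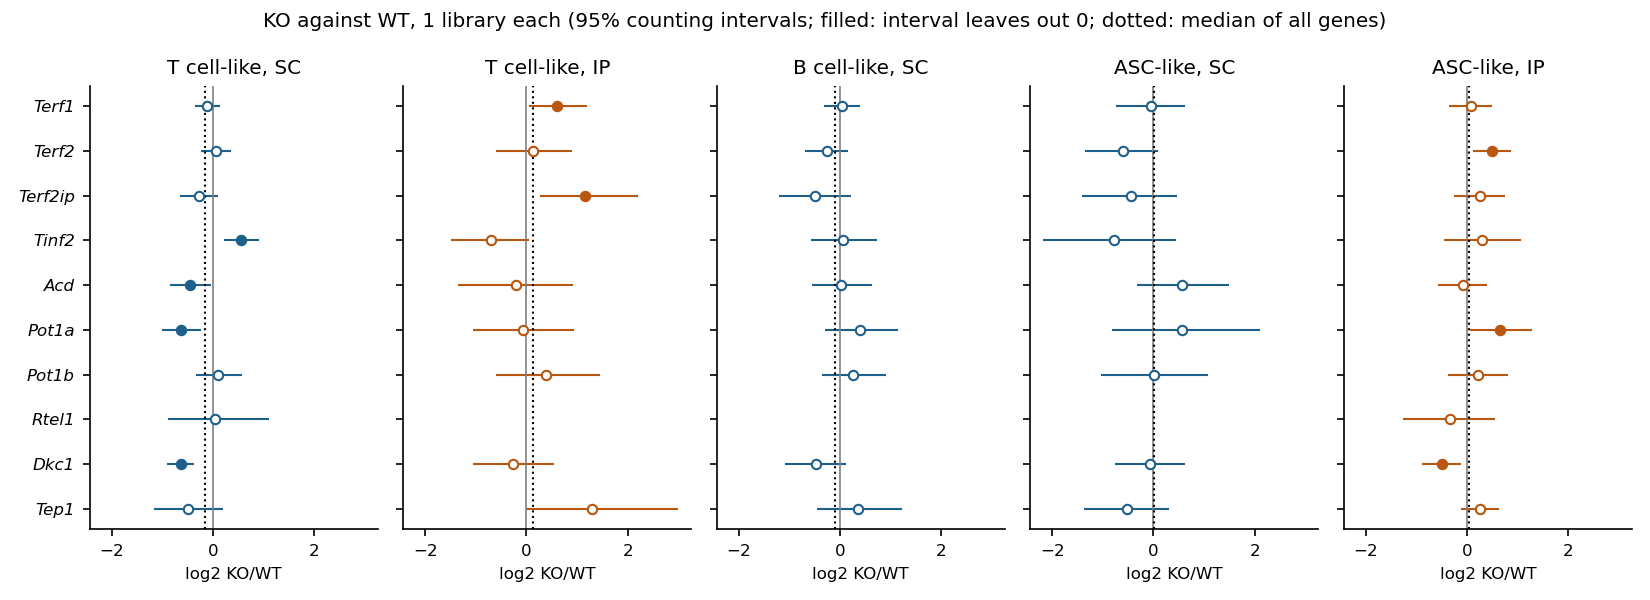
Log2 ratios of KO over WT are plotted for each member in 5 panels, 1 per class and depot, with exact 95% counting intervals. Filled points have an interval that leaves out 0 and dotted lines mark the median of all genes. T cell-like cells of SC hold 4 filled points, with Tinf2 at 0.55 to the right of 0 and Dkc1, Pot1a and Acd to the left.

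Depots were compared within a genotype, with the same 4 libraries and again no test. Of 39 member values, 7 had an interval leaving out 0, beside 36.2% of all gene values. With median-of-ratios scaling there were 8. NK cell markers, which T cell-like cells can share, summed to 32.9, 18.9, 135 and 86.4 CPM in T cell-like cells, higher in the IP libraries, and their part in these ratios was not tested. In T cell-like cells of WT, Tinf2 was at 39.7 CPM in IP and 21.2 in SC (log2 ratio 0.92, 0.32 to 1.47), and Dkc1 was at 31.1 and 47.2 CPM (-0.58, -1.22 to -0.04), 2 of 9 members beside 25.2% of all genes. For T cell-like cells of KO, Tep1 was at 16.7 CPM in IP and 5.20 in SC (1.71, 0.82 to 2.49), on 18 and 48 UMIs. There Terf2ip (0.96, 0.39 to 1.47) and Terf1 (0.73, 0.34 to 1.08) were also at higher levels in IP, 3 of 10 members beside 39.9% of all genes, and the median of all genes was 0.33. In ASC-like cells of KO, Tep1 was at 22.9 CPM in IP and 12.03 in SC (0.90, 0.27 to 1.66) and Terf2 at 24.6 and 15.9 CPM (0.62, 0.05 to 1.27), 2 of 10 members beside 40.1% of all genes. The interval of Terf2 with median-of-ratios scaling (-0.06 to 1.16) included 0. In ASC-like cells of WT no member's interval left out 0 per UMI total, beside 38.1% of all genes. With median-of-ratios scaling that of Terf2 did there (-0.57, -1.07 to -0.03). In T cell-like cells of KO that of Tinf2 also did (-0.64, -1.31 to -0.09), with the opposite sign to WT. At least 1.5-fold higher in IP were 1 of 9 members in T cell-like cells of WT (14.7% of all genes), 1 of 10 in ASC-like cells of WT (18.8%) and 4 of 10 in each class of KO (34.1% in T cell-like and 22.2% in ASC-like cells). At least 1.5-fold lower was 1 member in ASC-like cells of WT (14% of all genes) and 0 in T cell-like cells of WT (14.8%), in T cell-like cells of KO (10.3%) and in ASC-like cells of KO (12.7%).

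Because dyskerin serves ribosome synthesis as well as telomerase, the members were also set against cell division. In cells that held UMIs of at least 3 of 10 cell cycle markers, 56 in all, Dkc1 was at 87.5 CPM (160 UMIs), against 24.97 CPM in the 3589 cells with none. The log2 ratio was 1.81 (1.56 to 2.06). The marked cells were above the unmarked cells in each library, at 118, 90.9, 80.1 and 46.0 CPM in marked and 30.2, 24.9, 23.9 and 19.9 CPM in unmarked cells. With at least 2 markers the Dkc1 ratio was 1.24 (1.002 to 1.47) over all libraries, and KO IP was at 24.3 against 19.9 CPM (0.32, -0.52 to 1.01). With at least 3 markers KO IP had 5 marked cells, fewer than the 10 needed in each library for a test, so none was run. The marked cells were also deeper, with 1827682 UMIs in 56 cells against 33477896 in 3589, and the part of depth in the result was not tested. They comprised 23 T cell-like, 7 macrophage-like, 6 ASC-like, 2 B cell-like, 2 NK cell-like and 16 cells of no class. Among T cell-like cells alone Dkc1 was at 114 CPM in marked and 30.4 in unmarked cells (1.92, 1.58 to 2.23), where 32.9% of all genes were at least 1.5-fold higher and 25.9% lower.

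The shelterin genes had smaller ratios, whose difference from that of Dkc1 was not tested. Terf1 was at 48.7 CPM in marked and 34.7 in unmarked cells (log2 ratio 0.50, 0.16 to 0.80) and Acd at 22.4 and 15.4 CPM (0.56, 0.05 to 1.01), and the intervals of the other 7 members included 0, beside 48.4% of all genes whose interval left it out. With at least 2 markers Terf1 was at -0.04 (-0.35 to 0.24) and Acd at 0.39 (-0.02 to 0.76), so neither interval left out 0. Dkc1 and Rtel1 (0.86, -0.19 to 1.66, on 12 UMIs in marked cells) were at least 1.5-fold higher and no member was lower. Among all genes 23.1% were at least 1.5-fold higher and 33.1% lower in marked cells. In cells with no cycling marker the KO to WT ratio of Dkc1 was -0.39 in T cell-like cells of SC and -0.33 in ASC-like cells of IP, against -0.64 and -0.50 in all cells of these classes. Its IP to SC ratio in T cell-like cells of WT was -0.20 in place of -0.58.

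**Figure D5:**
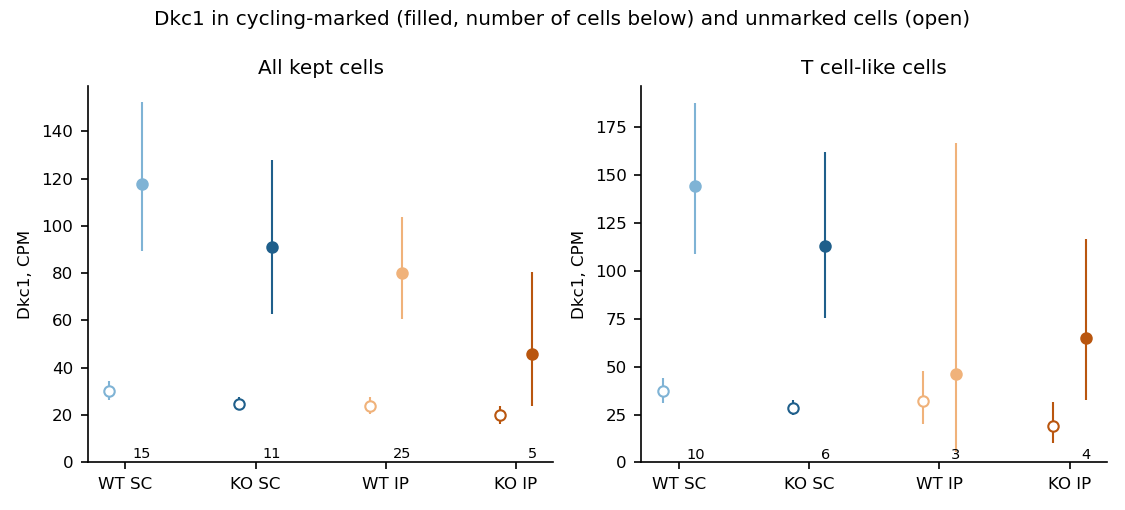
Dkc1 level in CPM in cycling-marked (filled) and unmarked (open) cells is shown for each library, with exact 95% counting intervals, over all kept cells and over T cell-like cells. In all kept cells the marked value is above the unmarked value in each of the 4 libraries, from 46.0 against 19.9 CPM in KO IP to 118 against 30.2 in WT SC.

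The members were also compared within a class and library between cells with and without a UMI of GFP, the reporter of past recombinase activity. The share of such UMIs that comes from free RNA was not measured, so a GFP UMI does not show a recombined cell, nor its lack an unrecombined one. Depth differed too. ASC-like cells with GFP had medians of 26423, 14663, 27268 and 26112 UMIs. Those without had medians of 8474.5, 14722, 21129 and 21992. The part of depth in these ratios was not tested. In 10 class and library pairs, with shared barcodes left out, the log2 ratio of the members together ran from -0.27 to 0.29, and each interval included 0. For single members with at least 20 UMIs, 8 of 77 intervals left out 0, beside 14.1% of all gene values. They went both ways. Terf1 was lower in cells with GFP among T cell-like cells of WT SC (-0.45, -0.86 to -0.01) and ASC-like cells of WT IP (-0.75, -1.46 to -0.12) and higher among T cell-like cells of KO SC (0.38, 0.08 to 0.67). Dkc1 was at 0.55 (0.09 to 1.06) in T cell-like cells of WT SC and at -1.54 (-3.67 to -0.14) in those of KO IP, where Terf2ip was at 1.44 (0.44 to 2.51). In B cell-like cells of WT SC, Terf2 was at -0.80 (-1.52 to -0.15) and Pot1b at 1.11 (0.09 to 2.20).

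The genes whose levels were most like a member's over the 12 sums of class and library were found by Pearson's r of log2(CPM + 10) among 10545 genes, as a description. The sums share libraries and fall into few classes. For Terf1, the member with the most UMIs, these were Hip1r (r = 0.991), Mynn (0.987), Scaf8 (0.981), Ctcf (0.979) and Mtrex (0.979). For Terf2 they were Prkd2 (0.951), Rab3gap1 (0.949), Uri1 (0.947), Chd6 (0.947) and Ggps1 (0.937). For Tep1, chosen after its values were seen, they were Specc1l (0.960), Ctsa (0.941), Entpd7 (0.940), Gm2a (0.939) and Gpx1 (0.936). Macrophage-like cells entered these sums from WT IP only, with Tep1 at 88.3 CPM against at most 22.9 CPM in the other sums. How far that sum sets the Tep1 correlations was not tested.

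A wider list of 50 genes of telomerase assembly, the CST complex, tankyrases, end processing, break signalling and telomeric chromatin gave 49 with a row, of which 45 were tested. In ASC-like against T cell-like cells 17 were lower and 7 higher, beside 30.7% and 35.8% of all genes, with a median of -0.34 against 0.09. Against B cell-like cells 17 were lower and 6 higher, beside 28% and 36%, with a median of -0.45 against 0.13. All differences of the wider list are shares of UMIs, and the list was not compared per cell. Per cell, the median of all genes in ASC-like cells was 1.10 against T cell-like and 1.63 against B cell-like cells. The tankyrase-binding protein gene Tnks1bp1 was higher in ASC-like cells by 4.19 (log2, adjusted p = 8.50e-08) than in T cell-like and by 4.32 (adjusted p = 8.66e-07) than in B cell-like cells. Naf1, an assembly factor of telomerase, was also higher (1.34, adjusted p = 0.000766 and 1.86, adjusted p = 0.000453). Siah2, a ubiquitin ligase, was lower (-1.68, adjusted p = 1.72e-06 and -1.25, adjusted p = 0.000104). Rpa1, a subunit of the single-strand binding protein RPA, was lower than in T cell-like cells (-2.07, adjusted p = 5.51e-06), and the nuclease gene Ercc4 was lower than in B cell-like cells (-1.44, adjusted p = 0.000506).

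In B cell-like against T cell-like cells 5 of the 45 were higher and 4 lower, beside 10.8% and 15.4% of all genes. Fbxo4, an F-box gene, was higher (1.82, adjusted p = 0.000635), while Stn1 of the CST complex (-1.67, adjusted p = 0.00199), Rif1 (-1.05, adjusted p = 0.0121) and Cbx3 (-0.59, adjusted p = 0.0188) were lower. In macrophage-like cells, where 46 were tested, 10 were lower than in T cell-like and 9 lower than in B cell-like cells, beside 13.5% and 9.53% of all genes, and none was higher in either comparison, beside 16.3% and 16.6%. The kinase gene Atm was at -3.03 (adjusted p = 0.000484) and -3.05 (adjusted p = 0.000863), and Xrcc5, the large Ku subunit gene, was at -2.76 (adjusted p = 0.00689) and -3.14 (adjusted p = 0.00392). Tnks2 (-1.42, adjusted p = 0.00109) and Rpa1 (-2.02, adjusted p = 0.00188) were lower than in T cell-like cells, and Parn (-2.36, adjusted p = 0.00233) and Ercc4 (-2.08, adjusted p = 0.00981) were lower than in B cell-like cells. In ASC-like against macrophage-like cells 7 were higher and 2 lower, beside 21.7% and 16.8% of all genes, among them Tnks1bp1 (4.24, adjusted p = 6.91e-05), Xrcc5 (2.79, adjusted p = 0.00367), Parn (2.15, adjusted p = 0.00148) and Siah2 (-1.38, adjusted p = 0.000626).

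Between KO and WT the wider list was compared without a test. The genes named were chosen among those with the same sign in both depots, which were 14 of 39 compared in T cell-like and 20 of 41 in ASC-like cells. Stn1 had KO to WT log2 ratios of 0.38 in SC and 0.65 in IP in T cell-like cells and of 0.53 and 0.52 in ASC-like cells. Ten1, another CST subunit gene, was at -0.39 and -0.64 in T cell-like cells, where Atm was at -0.35 and -0.31 and Siah2 at 0.21 and 0.22. In ASC-like cells Shq1, a dyskerin chaperone gene, was at 1.26 and 0.50, Gar1, a partner of dyskerin, at -0.50 and -0.43, and Pinx1, a telomerase inhibitor gene, at -0.80 and -0.41. The interval left out 0 in 1 of the 2 depots for Stn1 in either class, for Ten1 and Atm in T cell-like cells and for Shq1 and Gar1 in ASC-like cells. These genes were named for the size of the same ratios, so their intervals add no separate support. Among all genes the interval left out 0 for 33% in SC and 22.8% in IP in T cell-like cells. In ASC-like cells it did so for 20.9% in SC and 33.3% in IP. At least 1.5-fold higher were 0 of 47 in T cell-like cells of SC and 12 of 39 in those of IP, and lower were 7 and 2, beside 4.55% and 19.2% higher and 14.5% and 7% lower of all genes. In ASC-like cells 2 of 41 were higher in SC and 0 of 47 in IP, and 3 and 1 were lower, beside 9.48% and 12.3% higher and 8.8% and 6.69% lower of all genes.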

How the data were processed

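Droplet 3′ single-cell libraries were analysed from the deposited raw counts (UMIs per gene and barcode). Per the file headers the authors used Cell Ranger 7.0.0, and the submitters' processing notes also name STAR 2.6 and mm10. Whether intronic reads were counted and how cells were called is not given in the sources used here. Counting them would raise long genes, so levels were not compared between genes. Of 32290 features, 5 reporters were left out. Barcodes needed 200 or more genes and no more than 25% mitochondrial UMIs. Scrublet (scanpy 1.11.5, expected rate 5%) marked 23 of them, 0.556%, as doublets, and these were removed. A cell took a class when 3 or more of its 6 markers were detected, with at least 4 times the UMIs of any other list, so the marker genes are not results.

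UMIs were summed per class and library. Classes with 15 or more cells in all 4 libraries were tested with edgeR 4.0.16 (R 4.3.3, TMM, library as block, adjusted p under 0.05). KO against WT and IP against SC were given as log2 ratios of CPM with 0.5 UMI added, for genes with 20 or more UMIs and classes with 30 or more cells in both libraries, with exact conditional binomial 95% intervals. Levels carry exact Poisson intervals, and 0 counts were read as an upper limit of 3. Intervals cover counting error only. DESeq2 1.42.0, size factors, filters, marker rules, libraries and cell sets were varied. Scripts used numpy 2.4.6, pandas 2.3.3, scipy 1.17.1 and matplotlib 3.10.9 in Python 3.11.15 and were tested on simulated data.

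All 10 members and Tert were named. From the wider list, up to 4 genes with the smallest adjusted p per pair of classes were named, and for KO against WT up to 2 per direction with the largest smaller ratio among genes of the same sign in both depots. For likeness the 5 genes with the highest r to each of the 2 members with the most UMIs were named. The members, lists and tests were chosen with earlier results of these data known, and the promoter motifs after the sequences were seen.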

Additional observations from a re-analysis of the deposited data

How the results depend on the processing

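KO and WT, and IP and SC, could not be paired because the labels give no replicate numbers, with 1 library per group. The class tests compared classes within libraries through the library block. Of member differences between classes, 624 values under other settings kept direction and side of the threshold, 15 lost and 14 gained the call and 25 turned direction. With 1 library left out these numbers were 179, 29, 4 and 10. Of ratios, 968 kept their value within the counting interval, 7 moved and 1 whose interval had left out 0 turned direction. Changes of sign in ratios whose interval included 0 were not counted as turned. For example, the KO to WT ratio of Terf1 in T cell-like cells of SC was -0.11, and 0.03 with median-of-ratios scaling. Causes of these changes were not tested. Scaling per cell also moved the median of all genes to the values given above.

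With 1 library left out, members lower in ASC-like than in T cell-like cells ranged from 3 to 7 and higher from 1 to 1. Lower than in B cell-like cells ranged from 2 to 6. Members higher in B cell-like than in T cell-like cells ranged from 0 to 1, the latter without KO IP. In macrophage-like against T cell-like cells 1 to 2 were higher and 0 to 2 lower, against B cell-like cells 1 to 2 were higher and 0 to 2 lower, and in ASC-like against macrophage-like cells 2 to 3 were lower. Without an IP library, macrophage-like cells were a lone sample assumed to vary like the other groups.

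Per cell, ASC-like against T cell-like cells had 2 members higher and 1 lower, with reversed values for Terf2 (0.37), Terf2ip (0.17), Acd (0.74), Pot1b (0.20) and Dkc1 (0.31). ASC-like against B cell-like cells had 3 higher and 0 lower, with reversed values for Terf1 (0.23), Terf2 (0.30), Terf2ip (0.70), Tinf2 (0.0017), Acd (0.73), Pot1a (0.34), Pot1b (0.18) and Dkc1 (1.08). B cell-like against T cell-like cells had 1 lower (Tinf2), and Terf1 was at -0.52. Macrophage-like against T cell-like cells had 0 lower, with Tinf2 at 0.15 and Acd at 0.24, and against B cell-like cells 2 higher and 0 lower, with Terf1 at 0.13, Acd at 0.23, Pot1a at 0.45 and Dkc1 at 0.49. ASC-like against macrophage-like cells had Terf1 at 0.12.

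In B cell-like against T cell-like cells, 1 member was higher with no library block, 1 with at least 4 markers and 2 in cells with no cycling marker. Terf1 there was at -0.022 with RLE size factors and -0.22 with DESeq2, and with 1 library left out from -0.38 (KO SC) to 0.32 (KO IP), with -0.31 without WT SC. With 1 library left out Pot1a ranged from -0.52 to 0.054 (WT SC) and Terf2ip from -0.33 to 0.10 (KO SC). Acd in ASC-like against T cell-like cells ranged from -0.36 to 0.087, the latter without WT SC. In macrophage-like against T cell-like cells 2 were lower with no filter, 2 with no library block and 3 with at least 2 markers, and Tinf2 ranged from -1.34 to 0.56 (without WT IP) with 1 library left out. Relative to B cell-like cells 2 were lower with no library block and 2 higher with at least 2 markers, and Tinf2 was at -0.011 with no filter, -0.060 with no library block and from -0.73 (without KO IP) to 1.02 with 1 library left out. In ASC-like against macrophage-like cells 1 was higher in cells with no cycling marker, and with 1 library left out Terf1 ranged from -0.44 to 0.14 (without KO IP), Acd from -0.11 (without KO IP) to 1.63 and Terf2ip from -0.31 (without WT IP) to 1.20. The macrophage fit was not run with at most 10% mitochondrial UMIs or at least 4 markers, for lack of cells.

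For the members together, the KO to WT log2 ratio in T cell-like cells of SC was -0.0329 with median-of-ratios scaling, and in ASC-like cells of SC -0.55 with each cell weighted equally. The IP to SC ratio in KO was 0.065 in T cell-like cells with median-of-ratios scaling and 0.59 in ASC-like cells with each cell weighted equally. The equally weighted values kept the barcodes shared with WT IP, which were 75 of the 204 ASC-like cells of KO SC. With at least 2 cycling markers the ratio of marked to unmarked cells was 0.15, against 0.57 with 3, and Terf1 was at -0.040. Low counts limit Rtel1, Tert, the IP B cell-like cells and the KO IP macrophage-like cells.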
